A study of Mus musculus with 9 samples.

Results

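The HoxB cluster genes *Hoxb2*, *Hoxb3*, *Hoxb4*, *Hoxb5*, *Hoxb6*, *Hoxb7*, *Hoxb8* and *Hoxb9* were followed through the cells of the early mouse forelimb bud. They were chosen by gene symbol, and all 8 were present among the 32285 mouse genes of every library. Single cells were profiled from forelimb buds at E10.75 (37 to 39 somites), and each library was made from the 2 forelimb buds of an embryo and kept separate. There were 3 wild-type (Wt) libraries, 3 libraries labelled EC1CRM8Δ/Δ (E1C8Δ/Δ below) and 3 labelled EC1CRM5Δ/Δ (E1C5Δ/Δ below). Both mutants are homozygous for deletions of enhancers that control *Grem1*, whose secreted protein blocks BMP signalling, and the Wt embryos carry neither deletion. The study's methods place all strains in a Swiss Albino background, and no other allele or agent was given for these groups.

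Hox genes encode homeodomain transcription factors that lie in 4 clusters, and the order of the genes along a cluster matches where each is expressed along the body axis. In the limb field the HoxA and HoxD clusters pattern the segments from shoulder to digits, whereas HoxB genes are known mainly for their expression in the hindbrain, trunk and lateral plate mesoderm from which the forelimb bud grows. Retinoic acid made in the trunk activates genes at the *Hoxb2* side of the cluster, and MEIS and PBX proteins bind DNA together with HOX proteins.

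The 8 genes lie head to tail on the plus strand of mouse chromosome 11, at chr11:96271457-96354012 of mm10, a span of 82556 bases that opens with *Hoxb9* and closes with *Hoxb2*. The annotation places *Hoxb9* at chr11:96271457-96276595, *Hoxb8* at chr11:96281905-96285315, *Hoxb7* at chr11:96286623-96290162, *Hoxb6* at chr11:96292476-96301569 and *Hoxb5* at chr11:96303336-96306121. *Hoxb13*, the most distal gene of the cluster, lies apart from them by a gap of 74009 bases and is not a member here. Transcripts from the opposite strand overlap 4 members. *Hoxb5os* shares exon sequence with *Hoxb5* and spans *Hoxb6* without touching its exons, and *Hoxb3os* shares exon sequence with *Hoxb3* and *Hoxb2*. The study's methods name Cell Ranger at its default settings, which count reads of 3′ libraries on the strand of the gene, so the partners of these pairs have separate counts.

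The 250 bases before the annotated starts of *Hoxb8* and *Hoxb4* are printed because these genes stand for 2 patterns described below, and because RefSeq promoter sequence (GRCm38.p6) was matched for these 2 of the 8 members. Capitals mark matches, on either strand, to 4 motifs that were searched: the retinoic acid receptor half-site AGGTCA, the MEIS motif TGACAG, the PBX-HOX motif TGATNNAT and the CDX motif TTTATG. Matches of different motifs did not overlap.

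Hoxb8, chr11:96281655-96281904, plus strand: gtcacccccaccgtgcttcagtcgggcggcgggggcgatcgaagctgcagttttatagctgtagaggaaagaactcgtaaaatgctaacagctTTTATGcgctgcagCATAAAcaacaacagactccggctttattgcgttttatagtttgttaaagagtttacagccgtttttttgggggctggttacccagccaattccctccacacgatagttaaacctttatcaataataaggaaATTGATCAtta

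Hoxb4, chr11:96318017-96318266, plus strand: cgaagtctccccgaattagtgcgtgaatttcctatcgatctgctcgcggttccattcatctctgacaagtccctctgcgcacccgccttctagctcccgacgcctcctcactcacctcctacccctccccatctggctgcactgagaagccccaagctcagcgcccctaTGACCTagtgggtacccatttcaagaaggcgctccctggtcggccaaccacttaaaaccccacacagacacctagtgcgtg

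The *Hoxb8* window held 2 CDX matches and 1 PBX-HOX match, and the *Hoxb4* window held 1 retinoic acid receptor half-site. Of the 32817 promoter windows in the table, 14.0% held AGGTCA, 15.9% TGACAG, 7.69% TGATNNAT and 10.77% TTTATG. A match describes these letters and is not evidence of binding.

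*Hoxb8* is also a known target of the microRNA miR-196a, whose gene lies in the same cluster between *Hoxb9* and the long non-coding RNA *Gm53*. The mature miRNA is shown with its seed (bases 2 to 8) in capitals. Below it stands the site found for it in the 3′ UTR of *Hoxb8* (chr11:96284888-96284909, exon 2 of 2). Both are printed because 21 of the 22 bases form A-U or G-C pairs. The remaining base of the miRNA, a U facing a G, lies inside the seed.

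mmu-miR-196a-5p, chr11:96265187-96265208: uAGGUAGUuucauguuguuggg

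Site in Hoxb8: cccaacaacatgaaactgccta

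The matrices hold no row for the miRNA gene, so its level was not analysed here.

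Of 133086 barcodes in the 9 libraries, 44654 cells passed the filters, 592 to 8699 per library, with median depths of 16896 to 47847 UMIs per cell. A UMI is a molecular tag that counts 1 captured transcript. Cells were assigned with marker genes, none of them a Hox gene. This gave 36319 mesenchymal cells, 2451 muscle progenitors, 2231 erythroid cells, 684 ectodermal cells and 648 endothelial cells. Of the mesenchymal cells, 68.6% were further assigned to 11 territories by their leading markers. Genes kept out of the gates were read as a check. *Hoxd13* was highest in the Tfap2b distal territory, *Hand2* in the Shh posterior territory, *Grem1* in the Osr2 dorso-ventral territory and *Hoxa11* in the Sall3 zeugopod-distal territory, whereas *Col2a1*, *Bambi* and *Tbx2* ranked 2 of 11 in the territories they were to mark. The study names *Rspo4* for both the Pax1 anterior-proximal and the Asb4/Msx1 peripheral cluster, and it read 78.17 CPM in the first territory and 49.98 CPM in the second, so it does not tell them apart. Regating after each cell was reduced to 10000 UMIs gave the same answer for 64.2% of cells, so territories are ranges of marker level rather than sharp classes. Levels are given in CPM, the UMIs of a gene divided by all UMIs of a cell group in 1 library, on the usual scale of that unit. Since 1 transcript gives 1 tag near its 3′ end, CPM does not scale with transcript length. Other differences in capture between genes were not measured, so levels of different genes are set side by side as measured.

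All 8 members were detected in mesenchyme at low levels, from 20.1 ± 4.16 CPM for *Hoxb3* to 1.78 ± 0.926 CPM for *Hoxb9* (mean ± SD, n = 9 libraries). *Hoxb2* followed with 14.8 ± 4.27 CPM, *Hoxb4* with 13.1 ± 2.35 CPM, *Hoxb5* with 9.03 ± 1.71 CPM, *Hoxb7* with 8.27 ± 2.53 CPM, *Hoxb6* with 7.45 ± 2.03 CPM and *Hoxb8* with 6.32 ± 2.09 CPM. The order of mean levels thus followed gene order from the *Hoxb3* side to the *Hoxb9* side except at *Hoxb2* and at *Hoxb6*. Together they made up 7.0% ± 1.28 of all Hox UMIs of mesenchyme (n = 9).

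These averages hid large differences between territories. In the Pax1 anterior-proximal territory (1571 cells) *Hoxb3* was found at 90.0 ± 17.3 CPM, *Hoxb5* at 66.2 ± 20.2 CPM, *Hoxb4* at 63.6 ± 14.6 CPM, *Hoxb2* at 49.0 ± 6.81 CPM and *Hoxb6* at 42.6 ± 8.64 CPM (n = 9). The mean of *Hoxb5* there was 117 times that of the Sall3 zeugopod-distal territory, where it was lowest. Between the highest and the lowest territory the ratio was 14.8 for *Hoxb2*, 58.5 for *Hoxb3*, 88.7 for *Hoxb4*, 104 for *Hoxb6*, 29.0 for *Hoxb7*, 60.6 for *Hoxb8* and 56.4 for *Hoxb9*. The lowest levels rest on few UMIs and lie near the erythroid level described below, so these ratios describe the measured means only.

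**Figure D1:**
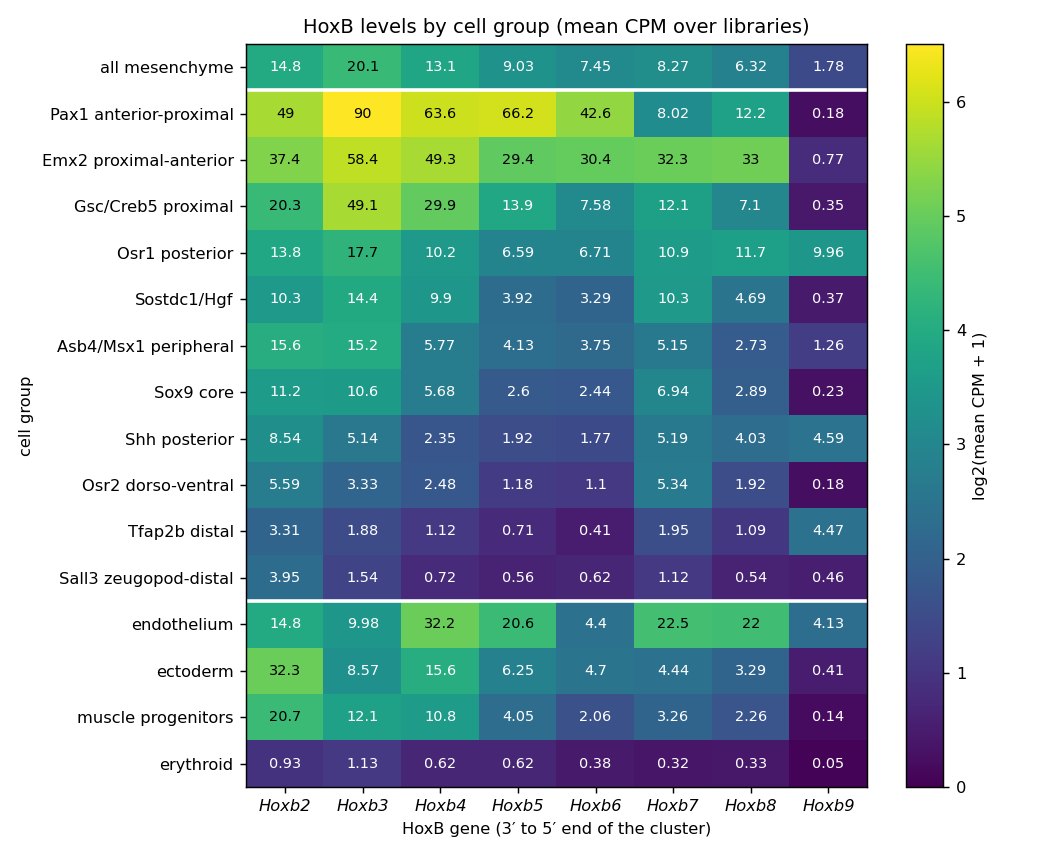
Mean level of each HoxB gene (columns) in each cell group (rows), printed in CPM over libraries and coloured by log2(mean CPM + 1). Among territories *Hoxb2* to *Hoxb6* are brightest in the Pax1 territory, *Hoxb7* and *Hoxb8* in the Emx2 territory and *Hoxb9* in the Osr1 territory, and all 8 are near 0 in erythroid cells.

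*Hoxb2* and *Hoxb3*, which are best known for patterning hindbrain segments, were highest in the Pax1 territory. *Hoxb2* ranged there from 34.4 through a median of 49.8 to 59.7 CPM, and *Hoxb3* from 64.2 through 84.9 to 129 CPM. In the Tfap2b distal territory, which holds the future digit region, *Hoxb3* ranged from 0.523 through 1.5 to 4.78 CPM. The ranges of the Pax1 and Tfap2b territories did not overlap for either gene. *Hoxb3* was 3.35 ± 0.07 log2 units higher (± SE) in the Pax1 territory than in the mean of the other territories (edgeR quasi-likelihood test within libraries, Benjamini-Hochberg adjusted p = 2.4e-65), and *Hoxb2* was 2.36 ± 0.06 higher (edgeR, adjusted p = 9.6e-55).

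*Hoxb4* and *Hoxb5* belong to the paralog groups that act on the forelimb-initiating gene *Tbx5* in lateral plate mesoderm. *Hoxb5* read 90.6, 68.8 and 56.8 CPM in the Pax1 territory of the 3 Wt libraries, 42.8, 43.3 and 49.3 CPM in E1C8Δ/Δ and 67.5, 77.1 and 99.1 CPM in E1C5Δ/Δ. The E1C8Δ/Δ libraries were the lowest 3 of the 9. The highest value in any other territory was 43.5 CPM, in the Emx2 territory of Wt replicate 1, and 7 of the 9 Pax1 values lay above it. *Hoxb5* was 4.41 ± 0.06 log2 units above the other territories (edgeR, adjusted p = 2.1e-79), the largest difference of any member in any territory. *Hoxb4* was 3.60 ± 0.07 log2 units above them (edgeR, adjusted p = 4.2e-66) with levels from 47.7 through 61.2 to 96.6 CPM.

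*Hoxb6*, whose lateral plate enhancer is widely used to drive Cre recombinase in limb mesenchyme, followed the same order. Its Pax1 levels ran from 28.4 through 44.9 to 53.5 CPM, 3.95 ± 0.09 log2 units above the other territories (edgeR, adjusted p = 5.5e-62). In all, 6 of 8 members were higher in the Pax1 territory and 1, *Hoxb9*, was lower (log2 difference −2.20, and −1.42 with doublets kept). Of all 12253 genes tested 34.0% passed in this comparison, 17.9% higher and 16.0% lower. *Hoxb7* at 8.02 ± 2.24 CPM did not pass (log2 difference 0.25, edgeR adjusted p = 0.16), although it did with gates set on thinned cells (0.52, edgeR adjusted p = 0.00055) or without E1C5Δ/Δ replicate 3 (0.37).

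*Hoxb7* and *Hoxb8* had their maxima one step away, in the Emx2 proximal-anterior territory (2644 cells; 17 cells of Wt replicate 3 were too few to use, n = 8). *Hoxb8*, which produces mirror-image posterior structures when it is expressed too far anteriorly in the limb bud, ranged there from 24.5 through 32.1 to 43.9 CPM. *Hoxb7* ranged from 27.5 through 33.4 to 38 CPM, above every Pax1 value of 5.13 to 11.6 CPM. *Hoxb8* was 3.24 ± 0.08 log2 units above the other territories (edgeR, adjusted p = 8.5e-59) and *Hoxb7* 2.42 ± 0.08 above them (edgeR, adjusted p = 4.2e-46). The Emx2 territory had 7 of 8 members higher and 0 lower, beside 51.6% of all genes that passed (24.3% higher and 27.3% lower), and *Hoxb9* at 0.773 ± 0.365 CPM did not pass (log2 difference −0.26, edgeR adjusted p = 0.47).

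The Pax1 and Emx2 territories were compared directly because their values had been seen to differ along the cluster. All 8 members passed (5 higher in Pax1 and 3 higher in Emx2, beside 31.7% of all genes, 17.2% higher in Pax1 and 14.5% higher in Emx2). The side changed once along the chromosome. *Hoxb2* (0.54 ± 0.08), *Hoxb3* (0.72 ± 0.09), *Hoxb4* (0.43 ± 0.08), *Hoxb5* (1.29 ± 0.08) and *Hoxb6* (0.57 ± 0.10) were higher in the Pax1 territory on the log2 scale, with edgeR adjusted p from 9.9e-28 to 2.2e-05. *Hoxb7* (−1.97 ± 0.14), *Hoxb8* (−1.52 ± 0.12) and *Hoxb9* (−1.76 ± 0.53) were higher in the Emx2 territory, with edgeR adjusted p from 1.8e-22 to 0.0057. Among the 8 libraries with both territories, *Hoxb3*, *Hoxb5* and *Hoxb6* were higher in Pax1 in 8, *Hoxb2* and *Hoxb4* in 7, and *Hoxb7*, *Hoxb8* and *Hoxb9* were higher in Emx2 in 8. For *Hoxb9* the levels were close to 0 in both territories, and the difference did not pass with gates set on thinned cells (−1.06, edgeR adjusted p = 0.085) or in the Wt libraries alone (−1.97, edgeR adjusted p = 0.23). *Hoxb4* did not pass in the Wt libraries alone either (0.33).

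**Figure D2:**
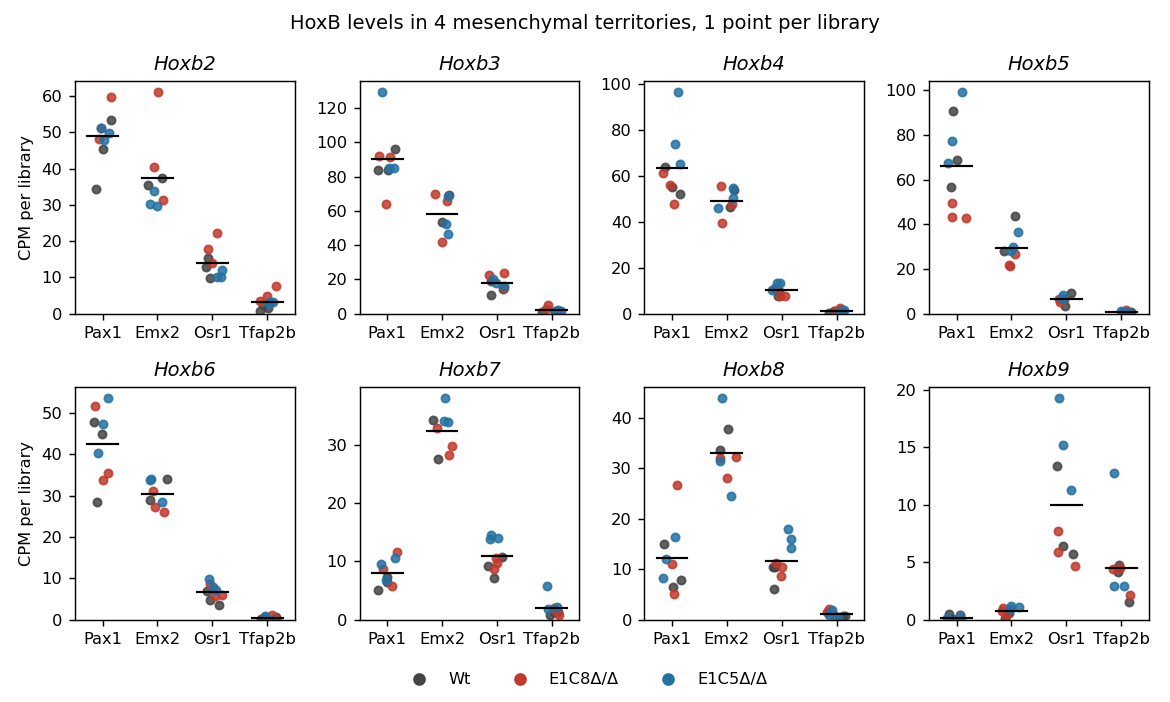
CPM (vertical axis) of each HoxB gene in the Pax1, Emx2, Osr1 and Tfap2b territories (horizontal axis), with 1 point per library coloured by genotype and a line at the mean. The mean lines of *Hoxb2* to *Hoxb6* are highest in the Pax1 territory, those of *Hoxb7* and *Hoxb8* in the Emx2 territory and that of *Hoxb9* in the Osr1 territory. The highest single point of *Hoxb2* (61.1 CPM, E1C8Δ/Δ replicate 1) lies in the Emx2 territory.

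Markers of trunk and flank tissue were read in the same cells. They summed to 88.7 CPM in the Emx2 (71.7 to 104), 54.7 CPM in the Gsc/Creb5 (43.8 to 63.7), 43.7 CPM in the Pax1 (34.3 to 51.1), 9.76 CPM in the Tfap2b (5.00 to 19.1) and 6.38 CPM in the Shh territory (2.58 to 14.3), and without *Tcf15* to 8.32, 12.1, 12.1, 3.30 and 1.48 CPM. The other sums were 37.7 CPM in the Sox9 core, 33.0 CPM in the Sostdc1/Hgf and 21.7 CPM in the Asb4/Msx1 territory. They were 16.8 CPM in the Sall3, 13.4 CPM in the Osr2 and 9.35 CPM in the Osr1 territory. *Nkx3-2*, *Sox1*, *Pax6* and *Olig2* were at 0 in the Pax1 and *Nkx3-2* and *Olig2* in the Emx2 territory. Of the 4 genes tested *Tcf15* (1.13) and *Gata6* (2.43) were higher in the Pax1 territory on the log2 scale, *Tcf15* (2.57) and *Meox1* (2.28) in the Emx2 territory, and *Tcf15* (1.56), *Meox1* (2.15) and *Gata6* (1.44) in the Gsc/Creb5 territory, while *Pax9* was lower in the last 2 (−2.67 and −1.98) and *Gata6* in the Emx2 territory (−0.98). Their part in the HoxB levels was not tested.

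The Gsc/Creb5 proximal territory was the next in order for *Hoxb3* (49.1 ± 7.22 CPM) and *Hoxb4* (29.9 ± 4.57 CPM). There 7 members were higher than in the other territories and *Hoxb9* was lower, beside 63.8% of all genes that passed (31.8% higher and 32.1% lower). *Hoxb5* stood at 13.9 ± 3.33 CPM and *Hoxb6* at 7.58 ± 2.95 CPM in these cells.

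*Hoxb9* had the most different distribution. It belongs to the paralog group whose members act together to start *Hand2* and *Shh* expression in the posterior forelimb bud. In the Osr1 posterior territory it read 6.41, 13.4 and 5.71 CPM in Wt, 5.91, 7.69 and 4.71 CPM in E1C8Δ/Δ and 11.3, 15.2 and 19.3 CPM in E1C5Δ/Δ. In the Pax1 territory, where most other members peaked, no library exceeded 0.466 CPM. *Hoxb9* was 4.08 ± 0.13 log2 units higher in the Osr1 territory than in the others (edgeR, adjusted p = 4.3e-49), 2.87 ± 0.17 higher in the Shh posterior territory (edgeR, adjusted p = 2.1e-28) and 2.85 ± 0.17 higher in the Tfap2b distal territory (edgeR, adjusted p = 9.6e-29). Its levels in the last 2, 4.59 ± 2.69 and 4.47 ± 3.31 CPM, did not differ beyond the spread between libraries.

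All 8 members were higher in the Osr1 territory, beside 38.6% of all genes that passed (19.6% higher and 19.0% lower), and the sizes were not alike. *Hoxb2* had the smallest and *Hoxb8* and *Hoxb9* the largest differences, with *Hoxb3* to *Hoxb7* between them. The log2 differences were 0.23 for *Hoxb2*, 0.68 for *Hoxb3*, 0.70 for *Hoxb4*, 0.72 for *Hoxb5*, 1.00 for *Hoxb6*, 0.80 for *Hoxb7*, 1.65 for *Hoxb8* and 4.08 for *Hoxb9*, with edgeR adjusted p of 0.017 for *Hoxb2* and of 7.2e-09 or below for the others. The small difference of *Hoxb2* did not pass in the Wt libraries alone (0.30), with doublets kept (0.16) or without Wt replicate 2 (0.21).

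The distal territories held the least. In the Tfap2b territory 7 members were lower and only *Hoxb9* was higher, beside 62.2% of all genes that passed (31.5% higher and 30.7% lower). The 7 lower members differed by −1.79 (*Hoxb7*) to −2.99 (*Hoxb4*) log2 units. With doublets kept *Hoxb3* to *Hoxb6* still passed but the differences shrank to between −1.42 and −1.62. In the Sall3 zeugopod-distal territory all 8 were lower, beside 55.0% of all genes that passed (29.1% higher and 25.9% lower), with *Hoxb9* losing its call in the Wt libraries alone (−0.99) and without any of E1C8Δ/Δ replicate 2 (−0.57), E1C8Δ/Δ replicate 3 (−0.63) or E1C5Δ/Δ replicate 2 (−0.61). The Osr2 dorso-ventral territory had 7 lower members, beside 35.9% of all genes that passed (20.2% higher and 15.7% lower). In the Sox9 core territory 4 were lower, beside 57.4% (28.4% higher and 28.9% lower). The Shh posterior territory had 5 lower members and *Hoxb9* higher, beside 44.4% (24.6% higher and 19.7% lower). In the Asb4/Msx1 peripheral territory 3 were higher and 3 lower, beside 47.8% (25.5% higher and 22.3% lower), and in the Sostdc1/Hgf territory 4 were higher, beside 31.7% (18.2% higher and 13.5% lower).

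Erythroid cells served as the background group, since free RNA is captured with every cell. Of the 15 cell groups they had the lowest mean of 7 members, and *Hoxb5* was lowest in the Sall3 territory (0.564 CPM, beside 0.616 CPM in erythroid cells). Erythroid levels ran from 0.333 to 1.44 CPM for *Hoxb2*, from 0 to 1.2 CPM for *Hoxb4* and from 0 to 0.244 CPM for *Hoxb9* (7 libraries with at least 20 such cells). In the Tfap2b territory *Hoxb2*, *Hoxb7* and *Hoxb9* were higher than in erythroid cells in 7 of 7 libraries, and the ranges over these libraries did not overlap. The other 5 members overlapped with their erythroid ranges. *Hoxb8* (1.07 beside 0.333 CPM) and *Hoxb4* (1.07 beside 0.622 CPM) were higher in the Tfap2b territory in 6 of 7 libraries and *Hoxb3* (2.13 beside 1.13 CPM) in 5. *Hoxb5* (0.768 beside 0.616 CPM) and *Hoxb6* (0.488 beside 0.384 CPM) were higher in 4 of 7, so for these 2 genes a level above the erythroid one was not detectable at this depth. In the Sall3 territory *Hoxb2*, *Hoxb3*, *Hoxb6*, *Hoxb7* and *Hoxb9* were higher than in erythroid cells in 7 of 7 libraries, *Hoxb4* and *Hoxb8* in 5 and *Hoxb5* in 4. Over these 7 libraries the range of *Hoxb2* there lay clear of its erythroid range, and those of the other 7 members overlapped with theirs. In Wt replicate 3, 1 of the 2 libraries with too few erythroid cells, *Hoxb2* read 0.784 CPM in the Tfap2b and 1.196 CPM in the Sall3 territory, inside that range. Overlap of ranges was not counted over all genes, of which 81.7% passed between erythroid cells and mesenchyme. Free RNA was not measured apart from these erythroid values.

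Over the 15 cell groups (11 territories and 4 other lineages), *Hoxb2* to *Hoxb6* varied together, with Pearson's r between 0.85 and 0.97 for the 10 pairs of log2(mean CPM + 1). *Hoxb7* and *Hoxb8* varied together (r = 0.94). *Hoxb9* had r between −0.09 and 0.30 with the other 7. These values describe 15 points that share libraries and free RNA, and no test was made. The genes outside the cluster most like *Hoxb8* were *Edil3* (r = 0.95), *Dab2* (0.88) and *B3gat3* (0.87), among 9943 genes compared. For *Hoxb4* they were *Plxna2* (0.94), *Foxp1* (0.92) and the HoxA-locus RNA *Hotairm1* (0.90), for *Hoxb5* the paralog neighbour *Hoxa4* (0.91), *Plxna2* (0.90) and *Hotairm1* (0.89), and for *Hoxb6* *Camk2n1* (0.93), *Comtd1* (0.92) and the retinoic acid receptor gene *Rarb* (0.90). *Hoxb3* was most like *Irx5* (0.91), *Irx3* (0.91) and *Hoxa2* (0.90), of which *Irx3* and *Irx5* helped to define the Emx2 territory. *Hoxb2* was most like *Letmd1* (0.92), *Hotairm1* (0.92) and *Rpl9-ps6* (0.91), and *Hoxb7* most like *Dab2* (0.91), *Edil3* (0.90) and *Zhx3* (0.90). *Hoxb9* had no close match, the nearest being *Prdm1* (0.79), itself a gate gene of the Shh territory, *Tmem173* (0.76) and *Dok4* (0.75).

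Since cells of a territory differ in how much of each gene was captured, shares of cells were read after every cell was thinned to 10000 UMIs and shallower cells were left out (2078 of 36319 mesenchymal and 3 of 2203 erythroid cells). Median depths before thinning were 27466 UMIs in mesenchyme and 32842 in erythroid cells. *Hoxb3* had a UMI in 14.5% ± 3.17 of mesenchymal cells (29.0% with all UMIs) and in 1.41% ± 0.627 of erythroid cells (3.38% with all UMIs). In the Pax1 territory the thinned share was 52.7% ± 9.51 for *Hoxb3*, 41.7% ± 10.2 for *Hoxb5* and 6.32% ± 3.84 for *Hoxb7*. In the Emx2 territory it was 26.6% ± 4.05 for *Hoxb8* and 26.5% ± 2.42 for *Hoxb7*. With all UMIs the Pax1 shares were 78.8%, 69.5% and 18%, and those of the Emx2 territory 51.9% and 50.7%.

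Single cells of the proximal territories often held several members at once. Of 1465 thinned Pax1 cells, 10.6% had no HoxB UMI, 21.9% had UMIs of 1 member, 28.4% of 2, 23.8% of 3 and 10.9% of 4. Of 1529 thinned Tfap2b cells, 88.0% had none. Any member was seen in 38.2% ± 6.18 of mesenchymal cells (58.3% with all UMIs) and in 5.16% ± 2.17 of erythroid cells (11.8% with all UMIs). The Pax1 territory held 33.2% ± 10.9 of the mesenchymal *Hoxb5* UMIs of a library, the Emx2 territory 31.2% ± 10.3 of the *Hoxb8* UMIs and the Osr1 territory 36.9% ± 7.50 of the *Hoxb9* UMIs.

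The other Hox clusters gave the context. HoxB genes made up 32.9% ± 4.17 of Hox UMIs in the Pax1 territory (n = 9) and 30.6% ± 3.14 in the Emx2 territory (n = 8), but 0.902% ± 0.375 in the Tfap2b and 0.630% ± 0.186 in the Sall3 territory (n = 9). In the Pax1 territory, where 17.9% of all genes were higher and 16.0% lower, 6 of 11 HoxA genes were higher and 4 lower. *Hoxa4* (2.96) and *Hoxa2* (2.78) were among those higher on the log2 scale and *Hoxa11* (−2.25), *Hoxa10* (−2.24) and *Hoxa13* (−1.88) lower. All 5 HoxC genes tested were higher, led by *Hoxc5* (4.36) and *Hoxc4* (3.60), and 2 of 8 HoxD genes were higher and 6 lower, led by *Hoxd11* (−2.95). Over the 11 territories *Hoxb4* and *Hoxc4* had r = 0.97, *Hoxb5* and *Hoxc5* 0.95 and *Hoxb2* and *Hoxa2* 0.94, whereas *Hoxb8* and *Hoxd8* had r = −0.82. In the Tfap2b territory *Hoxa13* (5.49) and *Hoxd13* (4.23), which specify digits, were higher.

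**Figure D3:**
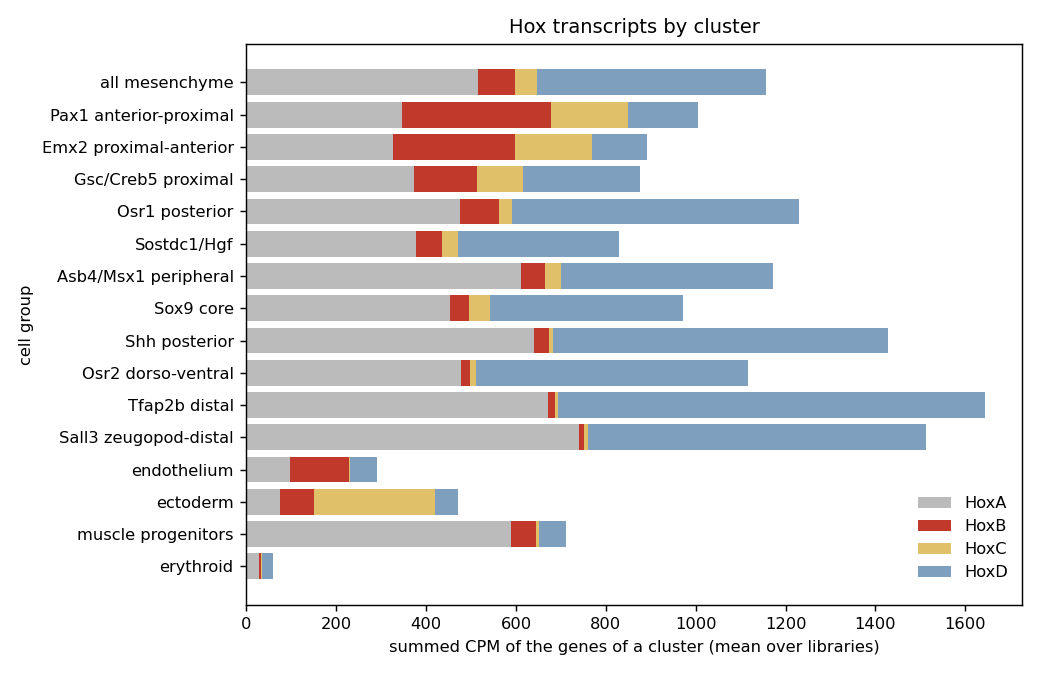
Summed CPM of the genes of each Hox cluster in each cell group, as the mean over libraries, with the HoxB part in red. The HoxB part is 32.9% of the bar in the Pax1 territory, 44.5% in endothelium and 0.630% in the Sall3 territory.

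Genes that act with or upstream of HOX proteins were read from lists. Their counts stand beside 17.9% of all genes higher and 16.0% lower in the Pax1 territory, and 31.5% higher and 30.7% lower in the Tfap2b territory. Of the 8 HOX cofactor genes 6 were higher and 0 lower in the Pax1 territory, among them *Meis3* (2.23), *Meis2* (1.92) and *Meis1* (1.47), and 1 was higher and 6 lower in the Tfap2b territory, led by *Meis2* (−3.22) and *Meis1* (−3.15). Of the 13 retinoic acid pathway genes tested 9 were higher and 2 lower in the Pax1 territory. The receptor gene *Rarb*, itself induced by retinoic acid, was 2.80 log2 units higher there and *Cyp26b1*, which encodes an enzyme that degrades retinoic acid, 1.84 lower (log2 difference −1.84). *Rarb* was also higher in the Emx2 (3.01) and Osr1 (2.23) territories and lower in the Tfap2b territory (−3.08). *Aldh1a2*, which encodes the enzyme that makes retinoic acid, was 3.43 log2 units higher in the Osr1 territory, where *Hoxb9* peaked. *Cyp26b1* was part of the gate of the Sall3 territory. Of 7 limb genes linked to these paralog groups, such as *Tbx5* and *Hand2*, 0 were higher and 5 lower in the Pax1 territory. Among the 7, *Shh* was part of the gate of the Shh territory, *Fgf10* of the Sall3 territory and *Tbx5* of mesenchyme. The count is therefore partly set by the gates. Within the locus, *Hoxb1* was 6.45 and *Hoxb5os* 3.89 log2 units higher in the Pax1 territory, and *Gm53*, which lies on the other side of *Hoxb9*, was higher in the Osr1 (2.21), Shh (3.23) and Tfap2b (3.90) territories and lower in the Emx2 territory (−2.15).

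Outside the mesenchyme the leading members were not those of the mesenchyme. In endothelium *Hoxb4*, which is known for its role in blood stem cells, was the highest member at 32.2 ± 6.87 CPM (n = 7), followed by *Hoxb7* at 22.5 ± 8.24 CPM, *Hoxb8* at 22 ± 8.04 CPM and *Hoxb5* at 20.6 ± 4.78 CPM. The libraries ran from 23.6 through 31.0 to 44.1 CPM for *Hoxb4*, and from 7.74 through 9.44 to 13.3 CPM for *Hoxb3*, with no overlap between the 2 genes. Against mesenchyme of the same libraries *Hoxb8* (1.90), *Hoxb7* (1.54), *Hoxb4* (1.41), *Hoxb5* (1.28) and *Hoxb9* (1.24) were higher on the log2 scale and *Hoxb3* (−0.89) and *Hoxb6* (−0.67) lower, with edgeR adjusted p from 1.7e-13 to 0.0039. Of all 12778 genes 74.4% passed in this comparison, 36.3% higher and 38.0% lower. HoxB genes were 44.5% ± 7.43 of endothelial Hox UMIs, the largest HoxB share of the groups measured.

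In ectoderm, where limb bud ectoderm and its ridge were pooled, *Hoxb2* was the leading member. It read from 20.6 through 32.1 to 44.0 CPM (n = 6) and was 1.19 ± 0.13 log2 units above mesenchyme (edgeR, adjusted p = 5.1e-10). The antisense gene *Hoxb3os*, which overlaps *Hoxb2* exons, had 26.6 CPM in the same cells, and its part in the *Hoxb2* value was not tested. *Hoxb4* at 15.6 ± 2.37 CPM did not pass (edgeR, adjusted p = 0.24), and the other 6 members were lower, beside 56.4% of all genes that passed (27.3% higher and 29.1% lower). In the Wt libraries alone 4 members passed, without *Hoxb5*, *Hoxb7* and *Hoxb8*.

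Muscle progenitors, which migrate into the bud from the somites, had the same leading gene. *Hoxb2* ranged from 12.9 through 19.9 to 31.1 CPM (n = 9), 0.57 ± 0.10 log2 units above mesenchyme (edgeR, adjusted p = 1.1e-05). The 6 genes *Hoxb3* and *Hoxb5* to *Hoxb9* were lower, beside 44.5% of all genes that passed (21.4% higher and 23.2% lower), down to *Hoxb9* at 0.140 ± 0.149 CPM (log2 difference −3.17, edgeR adjusted p = 1.4e-10). *Hoxb4* did not pass (−0.16, edgeR adjusted p = 0.25), although it did without E1C5Δ/Δ replicate 3 (−0.29). In erythroid cells all 8 were lower, beside 81.7% of all genes that passed (38.0% higher and 43.7% lower).

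The genotypes were then compared within mesenchyme. *Grem1*, the target of the deletions, was checked first. It read 44.1, 29.3 and 34.4 CPM in the mesenchyme of the Wt libraries, 11.2, 11.4 and 13.9 CPM in E1C8Δ/Δ and 17.3, 16.3 and 24.9 CPM in E1C5Δ/Δ, without overlap between Wt and either mutant. It fell by 1.57 log2 units in E1C8Δ/Δ (edgeR, adjusted p = 0.0012) and by 0.83 in E1C5Δ/Δ (edgeR, adjusted p = 0.031), and was lower in E1C8Δ/Δ than in E1C5Δ/Δ, with a log2 difference of −0.74 ± 0.17 (edgeR, adjusted p = 0.021). Libraries differed in size, with 484 mesenchymal cells in E1C8Δ/Δ replicate 1 and 734 in Wt replicate 3 against 1761 to 6983 in the others, and in sex, since all 3 Wt libraries read as male and 2 of the 3 libraries of each mutant as female. Genotype and sex are therefore partly confounded.

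Between mutant and Wt mesenchyme 1 of 8 members passed in each mutant. Median log2 differences of the 8 members from Wt were 0.48 in E1C8Δ/Δ and 0.57 in E1C5Δ/Δ, while the medians over all 16244 genes were −0.0065 and −0.00055. The medians were 0.36 and 0.24 over the 11 HoxA genes, 0.36 and 0.34 over the 5 HoxC genes tested and −0.15 and 0.22 over the 9 HoxD genes, and differences between clusters were not tested. In E1C8Δ/Δ 1 of 8 members passed, beside 9.47% of all genes (3.64% higher and 5.84% lower), and 5 had an unadjusted p below 0.05, beside 25.7% of all genes. In E1C5Δ/Δ 1 of 8 passed, beside 1.46% of all genes (0.345% higher and 1.11% lower), and 6 had an unadjusted p below 0.05, beside 13.7% of all genes. With the mutants together 1 of 8 passed, beside 2.23% of all genes (0.702% higher and 1.53% lower), and 6 had an unadjusted p below 0.05, beside 19.2% of all genes. In bulk sums of this kind more cells of a territory and more transcripts per cell cannot be told apart. Where libraries of a genotype are said below to lie above others, the share of all genes that separate so was not counted.

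*Hoxb3* was the member that passed in E1C8Δ/Δ. After TMM normalisation it read 17.5, 19.0 and 13.8 CPM in Wt, 23.0, 28.1 and 23.1 CPM in E1C8Δ/Δ and 20.3, 20.3 and 21 CPM in E1C5Δ/Δ. All 6 mutant libraries lay above all Wt libraries. It rose by 0.56 ± 0.12 log2 units in E1C8Δ/Δ (edgeR, adjusted p = 0.021) and differed by 0.29 ± 0.12 in E1C5Δ/Δ (edgeR, adjusted p = 0.33). The rise passed in 14 of 18 alternatives, with adjusted p from 0.00087 to 0.25. It did not pass with sex as a covariate (0.49, edgeR adjusted p = 0.13), with each territory given equal weight (0.33, limma adjusted p = 0.25), or without E1C8Δ/Δ replicate 1 (0.60) or 2 (0.46).

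*Hoxb7*, best known from the nephric duct, was the member that passed in E1C5Δ/Δ. It read 5.77, 7.36 and 4.07 normalised CPM in Wt, 8.76, 8.99 and 7.26 in E1C8Δ/Δ and 11.6, 11.4 and 11.8 in E1C5Δ/Δ. The E1C5Δ/Δ libraries lay close together and above all others. It rose by 1.00 ± 0.17 log2 units in E1C5Δ/Δ (edgeR, adjusted p = 0.019) and by 0.75 ± 0.15 in the mean of both mutants (edgeR, adjusted p = 0.033), with a value of 0.51 ± 0.18 in E1C8Δ/Δ that did not pass (edgeR, adjusted p = 0.093). The E1C5Δ/Δ rise did not pass with sex as a covariate (0.89, edgeR adjusted p = 0.16), with equal weight per territory (0.82, limma adjusted p = 0.18) or without E1C5Δ/Δ replicate 1 (1.00), and passed in the other 15 of 18 alternatives. The rise in both mutants passed in 9 of 18, and among the libraries it was lost without Wt replicate 1 or 3 or replicate 1 or 2 of either mutant, with values down to 0.58.

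*Hoxb9* was the member whose levels differed between the mutants. It read 1.28, 1.81 and 0.84 normalised CPM in Wt, 1.51, 1.49 and 1.13 in E1C8Δ/Δ and 1.99, 2.52 and 3.96 in E1C5Δ/Δ. All E1C5Δ/Δ libraries lay above all others, and Wt and E1C8Δ/Δ overlapped. The E1C8Δ/Δ level was 1.07 ± 0.30 log2 units below that of E1C5Δ/Δ (log2 difference −1.07, edgeR adjusted p = 0.048), the only 1 of 8 members to pass, beside 9.93% of all genes (4.27% higher and 5.66% lower). The call passed in 8 of 18 alternatives, was −0.73 without E1C5Δ/Δ replicate 3, the highest library, and −0.61 with equal weight per territory, and did not pass in either. It was also lost without Wt replicate 1, without any E1C8Δ/Δ replicate and without E1C5Δ/Δ replicate 2. Embryo sex as a covariate, the replicate block and mixed-lineage cells kept each ended the call as well.

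**Figure D4:**
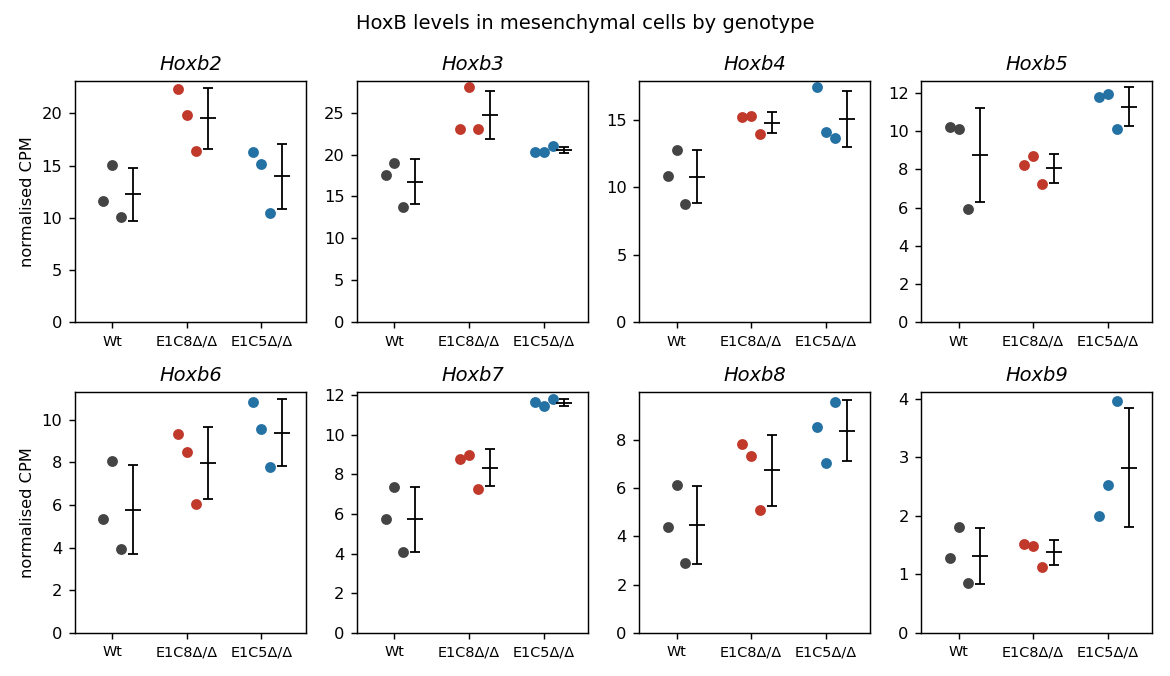
TMM-normalised CPM of each HoxB gene in mesenchyme by genotype, with 1 point per library and bars for the mean ± SD (n = 3 per group). All 6 mutant points of *Hoxb3* lie above all Wt points, the 3 E1C5Δ/Δ points of *Hoxb7* lie between 11.4 and 11.8, and those of *Hoxb9* lie above all others.

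The remaining 5 members did not pass in any of the 4 genotype comparisons. *Hoxb4* read 10.82, 12.7 and 8.79 normalised CPM in Wt, 15.2, 15.3 and 13.9 in E1C8Δ/Δ and 17.5, 14.1 and 13.6 in E1C5Δ/Δ, with all 6 mutant libraries above all Wt libraries. The differences of 0.45 ± 0.14 and 0.47 ± 0.14 log2 units missed the threshold (edgeR, adjusted p = 0.069 and 0.14). The separation of its libraries is a description only. *Hoxb8* read 4.37, 6.11 and 2.90 in Wt, 7.83, 7.32 and 5.07 in E1C8Δ/Δ and 8.53, 7.04 and 9.56 in E1C5Δ/Δ, with 5 of 6 mutant libraries above all Wt libraries. *Hoxb2* read 11.6, 15 and 10.0 in Wt, 22.3, 19.8 and 16.4 in E1C8Δ/Δ and 16.3, 15.1 and 10.5 in E1C5Δ/Δ, so only the E1C8Δ/Δ libraries stood clear of Wt, by 0.65 ± 0.19 log2 units (edgeR, adjusted p = 0.052). *Hoxb6* ranged from 3.93 to 8.06 in Wt and from 6.06 to 10.9 in the mutants, and *Hoxb5* from 5.91 to 10.2 in Wt and from 7.22 to 11.9 in the mutants, both with overlap.

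Shares of cells were then compared at equal depth. *Hoxb7* had a UMI in 4.91% ± 1.38 of thinned Wt mesenchymal cells (n = 3) and in 8.59% ± 1.46 of mutant cells (n = 6; two-sided exact permutation test over libraries, p = 0.012, the smallest that the 84 splits allow). For *Hoxb3* the shares were 11.3% and 16.2%, for *Hoxb4* 8.13% and 10.9% and for *Hoxb8* 3.94% and 6.69% (exact permutation p = 0.024 each). *Hoxb6* (p = 0.060), *Hoxb2* (p = 0.083), *Hoxb5* (p = 0.095) and *Hoxb9* (p = 0.35) did not reach 0.05 in the same exact test. The same exact test was made within 3 territories. In the Pax1 territory 0 of the 8 members reached 0.05 (exact permutation p from 0.15 to 0.82), and the mutant shares of *Hoxb5* (44.9% in Wt and 40.1% in mutants), *Hoxb6*, *Hoxb8* and *Hoxb9* were the lower ones. In the Tfap2b territory 0 of 8 reached it either (exact permutation p from 0.15 to 1.0). In the Osr1 territory *Hoxb3* (11.496% and 16.784%) and *Hoxb7* (6.5997% and 11.214%) had an exact permutation p of 0.024, and the other 6 members had exact p from 0.095 to 0.98. These are 32 comparisons in the same libraries, and the p-values are not adjusted for that.

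The sizes of the 11 territories were compared between Wt and both mutants together. The Sox9 core territory was 10.4% of Wt and 5.30% of mutant mesenchymal cells (exact permutation p = 0.024), the Osr2 territory 8.85% and 4.15% (exact permutation p = 0.012) and the Tfap2b territory 6.95% and 3.95% (exact permutation p = 0.012). The Emx2 territory, where *Hoxb7* and *Hoxb8* peaked, was 4.25% and 8.20% (exact permutation p = 0.060) and the Pax1 territory 4.37% and 4.67% (exact permutation p = 0.87). The other 6 territories had exact permutation p from 0.071 to 0.82, and none of the 11 passed after Benjamini-Hochberg adjustment, with adjusted exact p of 0.065 for the Osr2 and Tfap2b territories and 0.087 for the Sox9 core. Territories were set by marker genes that can differ between genotypes themselves. When Wt levels per territory were weighted by each mutant's territory sizes, the level of *Hoxb7* in E1C5Δ/Δ came to 1.22 times Wt, beside the measured 1.96 times. For *Hoxb9* in E1C5Δ/Δ these values were 1.02 and 2.12, and for *Hoxb3* in E1C8Δ/Δ 1.23 and 1.5. The measured ratio was the larger in 13 of the 16 pairs of a gene and a mutant. All pairs share the same Wt libraries, of which Wt replicate 3 had the lowest mesenchymal CPM of every member among all libraries. The same count was not made over all genes, so it is a description only. The exceptions were *Hoxb5* in E1C8Δ/Δ (1.26 and a measured 0.944), *Hoxb9* in E1C8Δ/Δ (1.12 and 1.08) and *Hoxb2* in E1C5Δ/Δ (1.11 and 1.09). Only 68.6% of mesenchymal cells had a territory, and the rest entered the weighting as 1 class. Shifts of cell types inside a territory or inside that class are not seen by it. What the ratios come from was not tested. Markers of trunk and flank tissue summed to 19.8 to 37.9 CPM per library (3.83 to 7.45 CPM without *Tcf15*), with UMIs of 6 to 10 of the 10 genes. By edgeR 0 of the 6 genes tested passed in either mutant against Wt, and their part in the HoxB differences was not tested. *Pax9*, 1 of them, differed between the mutants (log2 difference 1.25).

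Genotypes were last compared within each territory and in muscle progenitors, over 12 cell groups and 79 tests of a member that passed the filter on low counts, which a gene can pass through the genotype in which it is high. With the mutants averaged 0 of 79 passed by edgeR, beside 0.820% of all gene tests, and 24 (30.4%) had an unadjusted p below 0.05, beside 13.4%. In E1C8Δ/Δ 2 passed (2.53%, beside 3.77% of all gene tests in these groups) and 17 (21.5%) had an unadjusted p below 0.05, beside 20.4%, so both shares were near or below those of all genes. In E1C5Δ/Δ 2 passed (2.53%, beside 0.659% of all gene tests) and 32 (40.5%) had an unadjusted p below 0.05, beside 8.62%. The share of all genes that passed ran from 1.05% to 10.6% across the groups in E1C8Δ/Δ and from 0.0168% to 1.91% in E1C5Δ/Δ. *Hoxb5* and *Hoxb6* in the Osr2 and Shh territories and *Hoxb7* in the Sall3 and Tfap2b territories entered with 0 Wt libraries at filter level. The shares of the 79 tests hold these too and are a description only. The 79 tests also read the same 8 genes in the same 9 libraries, so they are not independent of each other. *Hoxb3* in the Shh posterior territory read 2.42, 3.43 and 2.20 CPM in Wt, 7.95, 10.2 and 8.80 CPM in E1C8Δ/Δ and 2.97, 3.96 and 4.30 CPM in E1C5Δ/Δ. All E1C8Δ/Δ libraries lay above all others, with a rise of 1.73 ± 0.28 log2 units over Wt (edgeR, adjusted p = 0.0045), beside 3.78% of all genes that passed there. *Hoxb2* in the Tfap2b territory read 1.47, 2.45 and 0.784 CPM in Wt, 7.52, 4.96 and 3.58 CPM in E1C8Δ/Δ and 3.18, 3.23 and 2.67 CPM in E1C5Δ/Δ. All 6 mutant libraries lay above all Wt libraries. The filter asks for about 2.05 CPM in at least 3 libraries there, which 1 of 3 Wt and 6 of 6 mutant libraries reached. The gene thus entered the fit through the mutants, and its difference of 1.42 ± 0.37 log2 units in E1C8Δ/Δ (edgeR, adjusted p = 0.028; 10.6% of all genes passed) is a description only. It did not pass without Wt replicate 1 (1.27) or E1C8Δ/Δ replicate 1 (1.26) or 2 (1.42). The E1C5Δ/Δ difference of 0.69 ± 0.38 did not pass (edgeR, adjusted p = 0.62), nor did that between the mutants (edgeR, adjusted p = 0.25).

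*Hoxb7* in the Osr2 territory (n = 8, since 12 cells of E1C8Δ/Δ replicate 1 were too few) read 2.56, 3.31 and 0 CPM in Wt, 4.88 and 3.55 CPM in E1C8Δ/Δ and 6.49, 9.04 and 12.9 CPM in E1C5Δ/Δ. All 5 mutant libraries lay above all Wt libraries, and the E1C8Δ/Δ difference of 0.76 ± 0.55 log2 units did not pass (edgeR, adjusted p = 0.48). It rose by 1.94 ± 0.39 log2 units in E1C5Δ/Δ (edgeR, adjusted p = 0.025; 1.91% of all genes passed), and did not pass without Wt replicate 1 (1.90) or E1C5Δ/Δ replicate 2 (1.96) or 3 (1.65). *Hoxb4* in muscle progenitors read 9.06, 9.78 and 5.69 CPM in Wt, 6.99, 9.14 and 9.66 CPM in E1C8Δ/Δ and 14.4, 14.4 and 18.4 CPM in E1C5Δ/Δ, with all E1C5Δ/Δ libraries above all others. It rose by 0.89 ± 0.18 in E1C5Δ/Δ (edgeR, adjusted p = 0.024; 1.42% of all genes passed), and did not pass without any of Wt replicate 1 (0.89), Wt replicate 3 (0.76), E1C5Δ/Δ replicate 1 (0.93) or E1C5Δ/Δ replicate 3 (0.79). Neither the *Hoxb7* nor the *Hoxb4* call passed with the replicate number as a block.

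The summed level of all 8 members, which needs no filter on low counts, was set out by territory as a description. In the Pax1 territory it was 318 ± 48.7 CPM in Wt (n = 3) and 338 ± 58.7 CPM in the mutants (n = 6), in the Emx2 territory 282 ± 30.1 (n = 2) and 267 ± 21.5 CPM (n = 6), and in the Gsc/Creb5 territory 112 to 158 CPM in Wt and 129 to 158 CPM in the mutants, with overlap between Wt and mutants in all 3. The mutant libraries lay above all Wt libraries in the Shh territory (22.4 ± 2.47 CPM in Wt and 39.1 ± 6.37 CPM in the mutants), in the Osr2 territory (12.7 ± 4.93 and 26.2 ± 5.60 CPM, with 5 mutant libraries) and in the Tfap2b territory (9.34 ± 2.70 and 17.7 ± 6.27 CPM). In the Tfap2b territory the gap was narrow, with 12.3 CPM (38 UMIs) in E1C5Δ/Δ replicate 2 beside 11.9 CPM (224 UMIs) in Wt replicate 2. The highest library there was E1C5Δ/Δ replicate 3 at 27.4 CPM, of which *Hoxb9* gave 12.8 CPM. Wt and mutants overlapped in the other 5 territories, where the ratio of mutant to Wt means ran from 1.25 in the Osr1 to 1.61 in the Sall3 territory. No test was made of the sums, and the part of free RNA in the values of the lowest territories was not tested.

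**Figure D5:**
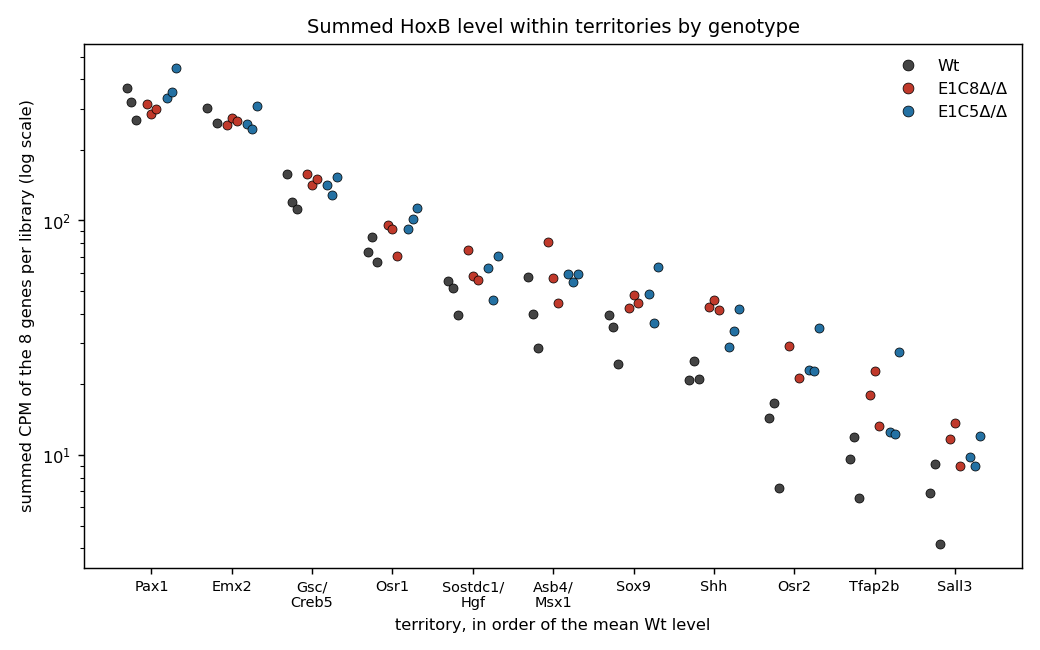
Summed CPM of the 8 HoxB genes (vertical axis, log scale) in each territory (horizontal axis, in order of the mean Wt level), with 1 point per library coloured by genotype. Points of Wt and mutants overlap in the Pax1, Emx2 and Gsc/Creb5 territories, and all mutant points lie above all Wt points in the Shh, Osr2 and Tfap2b territories. In the Tfap2b territory the nearest points are 12.3 CPM (E1C5Δ/Δ replicate 2) and 11.9 CPM (Wt replicate 2).

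Other Hox genes and the retinoic acid pathway were read for the same mesenchyme comparison, in which 9.47% of all genes passed in E1C8Δ/Δ and 1.46% in E1C5Δ/Δ. *Hoxd13* fell by 0.88 log2 units in E1C8Δ/Δ (edgeR, adjusted p = 0.0069) and by 0.74 in E1C5Δ/Δ (edgeR, adjusted p = 0.030). *Hoxa13* fell by 1.66 in E1C5Δ/Δ (edgeR, adjusted p = 0.024). In E1C8Δ/Δ *Hoxa3* (0.43) and *Hoxa9* (0.50) rose, and of the 5 HoxC genes tested 0 passed in either mutant by edgeR. *Rarb* rose in both mutants, by 0.72 in E1C8Δ/Δ (edgeR, adjusted p = 0.020) and 0.77 in E1C5Δ/Δ (edgeR, adjusted p = 0.037), and so did *Crabp1*, which encodes a retinoic acid binding protein (0.33 and 0.54). *Cyp26b1* fell by 0.79 and *Rxra* by 0.44 in E1C8Δ/Δ. Of the 7 limb genes 1 was lower in E1C8Δ/Δ (*Hand2*, −0.36) and 0 passed in E1C5Δ/Δ by edgeR. Of the 8 cofactor genes only *Pknox2* in E1C8Δ/Δ passed (−1.0).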

How the data were processed

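The authors deposited raw UMI counts per gene and barcode for each of the 9 libraries, made from 10x Genomics 3′ v3.1 libraries. The submitters' processing notes name Cell Ranger 6.0.1, Seurat 4.3.0.1 and the mm10 genome. The study's methods give Cell Ranger's default settings, at which reads are counted on the strand of the gene. Cells with over 2500 genes, at most 200000 UMIs and at most 10% mitochondrial UMIs were kept, following the study's filter. Simulated doublets were then used to remove doublets from these filtered cells. The rate was proportional to the number of all barcodes of a library, not to that of its filtered cells. It removed 2068 of 9076 filtered cells in E1C8Δ/Δ replicate 3 (28480 barcodes) and 12 of 604 in E1C8Δ/Δ replicate 1 (2571 barcodes). Lineages and territories were gated from marker genes without Hox genes, so these names are rebuilt and need not match those of the study. Groups under 20 cells in a library were left out. Counts were summed per library and cell group, since cells are not replicates, and each library came from its own embryo. In the genotype fits p-values measure the spread between libraries. In the territory and lineage fits the library block removes that spread. There p-values rest on the remaining spread of the sums, pooled over the cell groups. The sums were tested with edgeR 4.0.16 (filterByExpr, TMM, quasi-likelihood, R 4.3.3), with the library as a block for territories and lineages and with all 9 libraries in one fit for genotypes. Benjamini-Hochberg adjustment ran over all genes tested at 0.05. Alternatives used DESeq2 1.42.0, limma 3.58.1, RLE factors, no filter, other gates, embryo sex, the replicate number and each library left out. Cells and shares were computed with Python 3.11.15, numpy 2.4.6, scipy 1.17.1 and scikit-learn 1.9.0, and the tests were tested on simulated data.

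The text names all 8 members, for each the 3 genes outside the cluster with the highest correlation over cell groups (genes of at least 10 CPM in a group), and up to 6 genes by size among those of a list that passed, except for a few list genes that are not reported here. Members, marker genes and lists were chosen with earlier results of these data known, and the comparison of the Pax1 with the Emx2 territory was chosen after its values were seen. Mesenchymal depth was 16732312 to 259654956 UMIs per library. Up to 28 barcodes were shared between 2 libraries.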

Additional observations from a re-analysis of the deposited data

Results flagged for a closer look

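For 7 results the difference from Wt was not the same in the 2 mutants, by an edgeR quasi-likelihood test of E1C8Δ/Δ minus E1C5Δ/Δ on the log2 scale with Benjamini-Hochberg adjustment over all genes. In mesenchyme *Hoxb9* gave −1.07 (SE 0.30), as in the report. Within cell groups 6 of 79 tests passed (7.59%, beside 4.21% of all gene tests there) and 29 (36.7%) had an unadjusted p below 0.05, beside 20.3%. Some of the 79 tests entered through the genotype in which the gene is high, and the tests share genes and libraries. These shares are therefore a description only. Each of the 6 was lost in some fits that left out a library.

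In the Osr1 posterior territory *Hoxb9* gave −1.36 (SE 0.30, edgeR adjusted p = 0.019), with E1C5Δ/Δ at 11.3, 15.2 and 19.3 CPM and E1C8Δ/Δ at 5.91, 7.69 and 4.71 CPM. *Hoxb8* in the same territory gave −0.75 (edgeR adjusted p = 0.046), with E1C5Δ/Δ at 14.2, 16.0 and 17.9 CPM and E1C8Δ/Δ at 11.2, 10.5 and 8.70 CPM. Neither gene's mutant libraries overlapped. *Hoxb9* did not pass without E1C5Δ/Δ replicate 3 (−1.16) or any E1C8Δ/Δ replicate (−1.36, −1.66 and −1.14), and *Hoxb8* without any of the 6 mutant libraries (−0.83 to −0.65). Of all genes 5.10% passed there.

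In the Pax1 territory *Hoxb5* gave −0.86 (SE 0.17, edgeR adjusted p = 0.028; 1.16% of all genes passed), the values of which stand in the report. It did not pass without E1C5Δ/Δ replicate 2 (−0.88) or 3 (−0.74), without E1C8Δ/Δ replicate 1 (−0.83) or 2 (−0.78), or with the replicate block (−0.85). *Hoxb3* in the Shh posterior territory went the other way, with 1.28 (SE 0.26, edgeR adjusted p = 0.018; 3.63% of all genes passed), and did not pass without E1C8Δ/Δ replicate 2 (1.18) or 3 (1.32) or with the replicate block (1.18).

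In muscle progenitors *Hoxb4* gave −0.82 (edgeR adjusted p = 0.028) and *Hoxb6* −1.57 (edgeR adjusted p = 0.047), beside 4.73% of all genes that passed. *Hoxb6* read 3.68, 4.10 and 3.06 CPM in E1C5Δ/Δ and 0, 2.05 and 0.70 CPM in E1C8Δ/Δ, with no overlap. *Hoxb4* did not pass without E1C5Δ/Δ replicate 2 or 3 or any E1C8Δ/Δ replicate (−0.94 to −0.72) or with the replicate block (−0.85). *Hoxb6* did not pass without any 1 of the libraries except E1C8Δ/Δ replicate 2 (−1.74 to −1.12) or with the replicate block (−1.68).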

How the results depend on the processing

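Counts of members called between territories stayed within 1.5 times in all 108 fits that left out a library and all 60 other alternatives, and those between lineages in all 36 and 15, except for ectoderm in Wt libraries alone (4 in place of 7). Genotype calls in mesenchyme, 1 member in each of E1C8Δ/Δ, E1C5Δ/Δ, both mutants and E1C8Δ/Δ minus E1C5Δ/Δ, depended on the processing. They came to 4, 4, 4 and 2 with DESeq2, which called 13.7%, 3.53%, 5.87% and 14.4% of all genes, and to 2, 2, 3 and 1 without a low-count filter, which called 6.06%, 1.48%, 2.09% and 7.07%. They came to 0 in all 4 with embryo sex as a covariate (0.873%, 0.0722%, 0.0241% and 7.39% of all genes) and with equal weight per territory (5.71%, 0.363%, 0.437% and 6.47%). Doublets kept gave 2 in E1C8Δ/Δ (8.95% of all genes), and mixed-lineage cells kept gave 0 in the difference of the mutants (10.1%). Leaving out 1 library gave 0 to 4, 0 to 2, 0 to 1 and 0 to 3, while 2.27% to 12.5%, 0.442% to 1.63%, 0.786% to 4.83% and 2.18% to 13.6% of all genes passed. Within cell groups it gave 1 to 5 calls in E1C8Δ/Δ (2 as reported), 0 to 3 in E1C5Δ/Δ (2) and 1 to 7 in the difference (6), while 0.607% to 5.59%, 0.356% to 0.706% and 0.691% to 5.34% of all gene tests passed.

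Pairing of samples by replicate number was not seen. Deviations of 9 same-numbered pairs correlated at −0.14 to 0.08, and those of the 18 other pairs at −0.15 to 0.25. With 3 libraries per genotype these values cannot exclude a shared batch. With the replicate block 2 members were called in E1C8Δ/Δ (4.47% of all genes), 0 in both mutants (0.560%) and 0 in the difference (4.91%), and within cell groups 0 in E1C5Δ/Δ (0.410% of all gene tests) and 2 in the difference (2.12%).

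Values near 0 changed sign. *Hoxb9* in E1C8Δ/Δ (−0.0019) was 0.0038 with mixed-lineage cells kept, 0.0087 with DESeq2, 0.30 without Wt replicate 2 and 0.15 without E1C8Δ/Δ replicate 3. *Hoxb5* in both mutants (0.11) was −0.0030 with equal weight per territory and ran from −0.094 without Wt replicate 3 to 0.22. *Hoxb4* in the difference (−0.028) was 0.015 without E1C8Δ/Δ replicate 3, 0.090 without E1C5Δ/Δ replicate 1 and −0.0998 at the lowest. *Hoxb9* in the Emx2 territory (−0.26) ran from −0.38 to 0.017 without E1C5Δ/Δ replicate 3, and *Hoxb2* in endothelium (0.17) was −0.20 in Wt libraries alone. The share of mesenchymal cells with any member was 58.3% with all UMIs and 38.2% after thinning. The causes were not tested. The 2 libraries with the fewest cells and the partial confounding of genotype with embryo sex limit the genotype comparisons.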
